A study of Homo sapiens with 14 samples.

Results

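Liproxstatin-1 added to TNF was compared with TNF given without it in HT-29, an established line of human colorectal carcinoma cells. The comparison rests on 4 of the 14 RNA-seq libraries of the study, 2 from cells given TNF plus liproxstatin-1 and 2 from cells given TNF, chosen by their labels, and it was read across 22179 expressed genes of the 36555 gene IDs in the deposited table. The study asked why ferrostatin-1 and liproxstatin-1 act differently on cells that TNF drives into apoptosis. Cells of the 4 libraries received human recombinant TNF at 100 ug/ml as labelled, for 72 h, in 1 group together with 20 uM liproxstatin-1. Libraries used beside them came from cells given TNF plus 20 uM ferrostatin-1 (3 libraries), cells given 20 uM liproxstatin-1 without TNF (2 libraries), both for 72 h, and control cells in 0.1% DMSO (3 libraries). The model also drew its estimate of spread from 2 libraries of ferrostatin-1 without TNF. The labels call the replicates technical, so the p-values measure only the spread between these libraries. All of it is 1 cell line, and the labels do not say that the TNF wells received DMSO.

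Liproxstatin-1 is a spiroquinoxaline amine that traps lipid radicals and thereby blocks ferroptosis, the iron-dependent death that follows lipid peroxidation. TNF binds TNFR1 on colon epithelial cells, from which NF-kB drives inflammatory and survival genes while caspase-8 can drive apoptosis. Among the programmes read here, SREBP transcription factors control genes for making fatty acids and sterols, and ATF4 is the transcription factor of the integrated stress response, which answers amino acid shortage, misfolded protein and oxidative stress.

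Genes of lipid synthesis and stress were among those that changed. SCD, ACSL1, FASN, ACACA and HMGCS1 rose with liproxstatin-1, and the ATF4-linked genes ATF4, CHAC1 and JDP2 fell, as did TXNIP, FOS and JUN. Over all genes, 76 were called at an adjusted p below 0.05 by edgeR's quasi-likelihood test with Benjamini-Hochberg adjustment (0.343% of genes tested), 53 higher (0.239%) and 23 lower (0.104%) with TNF plus liproxstatin-1 than with TNF. The TNF libraries, numbered 1 and 3 as in the count columns, lay far apart from each other. The chi-square between their counts, divided by its degrees of freedom, was 203, against 22.3 for the pair with TNF plus liproxstatin-1 and 14.9 to 74.3 for pairs within the other groups. For that reason changes were also computed against either TNF library, in a fit that leaves out the spread between the TNF libraries, and are printed for part of the genes. The sizes against library 1 and library 3 were close for SCD (log2 1.31 and 1.37). They differed for ATF4 (-1.85 and -1.12), ABCA1 (2.45 and 1.255) and BIRC6 (3.05 and 1.48), among others. Fitted on the compared groups alone, edgeR called 0 genes (703 higher and 542 lower at an unadjusted p below 0.05), and DESeq2 called 1141 higher and 1317 lower. Leaving out 1 library moved the count to 356 without TNF library 1, 6797 without TNF library 3, and 6 and 4 without TNF plus liproxstatin-1 library 1 and 2. SCD, ACSL1 and MKI67 were called with any 1 of these libraries left out, and none of the falls was called when either library of TNF plus liproxstatin-1 was left out. Levels are CPM, read counts scaled by TMM to a common library size, and total counts were 61467684 and 70790640 in the libraries with TNF plus liproxstatin-1, 74780451 and 74458684 in the TNF libraries, and 59913850 to 75838597 over all 14.

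Promoter windows of 5 called genes are printed, 3 of genes that fell (CHAC1, CARS1 and JDP2) and 2 of genes that rose (SCD and HMGCS1), with short motifs that a script found in them. They come from the RefSeq table of build GRCh38.p14, which covers 250 bases before and 50 after each start. Of the genes that fell, 19 of 23 matched that table, and 6 of the 19 held the letters TGATGNAA on either strand, the core of elements bound by ATF4 dimers with C/EBP proteins. These were CHAC1, CARS1, JDP2, AJUBA, FAXDC2 and SGPP2. Of the 37 matched genes that rose, 1 held it (ADH6), and over all tested genes in the table it was present in 381 of 12835 (2.97%), or 3.62% of all 35116 windows. The letters CCAAT, the box bound by NF-Y, stood in 16 of the 37 genes that rose and 10 of the 19 that fell, against 42.2% of all tested genes in the table and 34.6% of all windows. TCACNCCAC, the letters of an SREBP element, stood in 3 of the 37 that rose (ACSL1, IGSF10 and SYNE2) and 0 of the 19 that fell, against 1.52% of tested genes and 1.13% of windows. Where a gene has several windows, a match in any of them was counted; matches are letters in a window, and binding was not measured. Capitals mark TGATGNAA, or its reverse complement, in the first 3 sequences and CCAAT, or its reverse complement, in the others. CHAC1 lies at chr15:40953221-40953520 on the plus strand, CARS1 at chr11:3057374-3057673 on the minus strand, JDP2 at chr14:75427772-75428071 on the plus strand, SCD at chr10:100346983-100347282 on the plus strand and HMGCS1 at chr5:43313363-43313662 on the minus strand.
CHAC1: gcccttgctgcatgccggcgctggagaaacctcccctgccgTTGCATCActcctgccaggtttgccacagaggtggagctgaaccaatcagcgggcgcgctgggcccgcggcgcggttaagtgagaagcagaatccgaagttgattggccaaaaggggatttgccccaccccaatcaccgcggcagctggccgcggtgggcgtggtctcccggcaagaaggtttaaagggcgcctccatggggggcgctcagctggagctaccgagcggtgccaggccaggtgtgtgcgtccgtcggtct
CARS1: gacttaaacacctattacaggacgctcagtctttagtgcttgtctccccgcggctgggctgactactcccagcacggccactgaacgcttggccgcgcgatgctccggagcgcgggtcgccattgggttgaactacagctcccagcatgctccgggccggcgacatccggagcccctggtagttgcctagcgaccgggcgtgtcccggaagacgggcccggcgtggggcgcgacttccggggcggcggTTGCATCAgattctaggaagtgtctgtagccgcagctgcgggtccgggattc
JDP2: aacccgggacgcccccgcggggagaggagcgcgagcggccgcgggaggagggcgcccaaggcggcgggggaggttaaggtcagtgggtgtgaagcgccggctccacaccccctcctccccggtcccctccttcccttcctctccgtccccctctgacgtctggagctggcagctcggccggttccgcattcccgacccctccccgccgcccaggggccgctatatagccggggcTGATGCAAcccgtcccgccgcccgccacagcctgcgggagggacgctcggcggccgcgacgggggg
SCD: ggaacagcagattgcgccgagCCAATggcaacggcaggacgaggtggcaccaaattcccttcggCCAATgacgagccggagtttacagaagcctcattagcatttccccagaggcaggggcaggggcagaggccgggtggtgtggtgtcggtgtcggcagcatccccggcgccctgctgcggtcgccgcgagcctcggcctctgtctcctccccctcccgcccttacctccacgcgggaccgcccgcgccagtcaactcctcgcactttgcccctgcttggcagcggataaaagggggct
HMGCS1: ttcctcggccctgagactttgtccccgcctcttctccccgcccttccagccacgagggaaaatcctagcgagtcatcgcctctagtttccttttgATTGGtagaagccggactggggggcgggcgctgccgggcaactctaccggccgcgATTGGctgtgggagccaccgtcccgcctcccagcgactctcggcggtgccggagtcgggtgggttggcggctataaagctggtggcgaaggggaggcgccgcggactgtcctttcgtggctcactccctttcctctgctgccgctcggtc

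Several genes of fatty acid synthesis and desaturation rose. Of 28 tested members of that list 5 rose (SCD, ACSL1, FASN, ACACA and LPIN1), 0 fell and 23 were not called, with a median log2 change of 0.29 against 0.01 over all genes tested. SCD, the desaturase that makes monounsaturated fatty acids (ENSG00000099194, chromosome 10, 100347233 to 100364826, plus strand in the deposited table, whose build is not stated), stood at 1149 and 1181 CPM with TNF plus liproxstatin-1 and at 471 and 450 CPM with TNF. The groups lay well apart and the libraries within each agreed closely, so the log2 change of 1.34 ± 0.08 (SE, adjusted p = 3.3e-05, n = 2 each, edgeR) was nearly the same against TNF library 1 (1.31) and library 3 (1.37). ACSL1, which activates long-chain fatty acids to their CoA esters, had 87.9 and 85.8 CPM with TNF plus liproxstatin-1 and 35.8 and 40.1 CPM with TNF, a log2 change of 1.19 ± 0.11 (SE, adjusted p = 0.00142, edgeR).

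FASN, the fatty acid synthase, had 1030 and 1184 CPM with TNF plus liproxstatin-1, against 521 and 564 CPM with TNF (log2 1.03 ± 0.15, adjusted p = 0.0158, edgeR). ACACA, the acetyl-CoA carboxylase that supplies FASN with malonyl-CoA, had 429 and 442 CPM with TNF plus liproxstatin-1 and 165 and 259 CPM with TNF. All 4 of these genes were above both TNF libraries, but the size of the ACACA change depended on which was used, with log2 1.40 against library 1 and 0.75 against library 3. LPIN1, a phosphatidate phosphatase, was higher by log2 0.73 (adjusted p = 0.0415). SREBF1, which encodes the regulator of this pathway, and ACSL3, another acyl-CoA synthetase, missed the threshold in the comparison of groups (log2 0.61 and 1.05, adjusted p = 0.0616 for each) and passed it against each TNF library, so that 7 of the 28 held against both.

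Among sterol genes, HMGCS1 rose. Of 28 tested members of the cholesterol synthesis list 2 rose, 0 fell and 26 were not called, with a median log2 change of 0.42, and 4 held against both TNF libraries, among them HMGCS1, LSS and DHCR7. HMGCS1, which makes the HMG-CoA that sterol synthesis starts from, stood at 151 and 149 CPM with TNF plus liproxstatin-1 and at 39.9 and 76.2 CPM with TNF. Its log2 change was 1.37 ± 0.23 (adjusted p = 0.0366, edgeR), 1.91 against TNF library 1 and 0.97 against library 3. In this list 17 members lay higher without overlap of the groups and 1 lower, where 25.0% and 25.4% of all genes did so. ABCA1, the transporter that exports cholesterol and a target of LXR, was the only call among 11 tested LXR targets, at 11.97 and 11.4 CPM with TNF plus liproxstatin-1 against 2.14 and 4.90 CPM with TNF (log2 1.73 ± 0.31, adjusted p = 0.042).

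**Figure D1:**
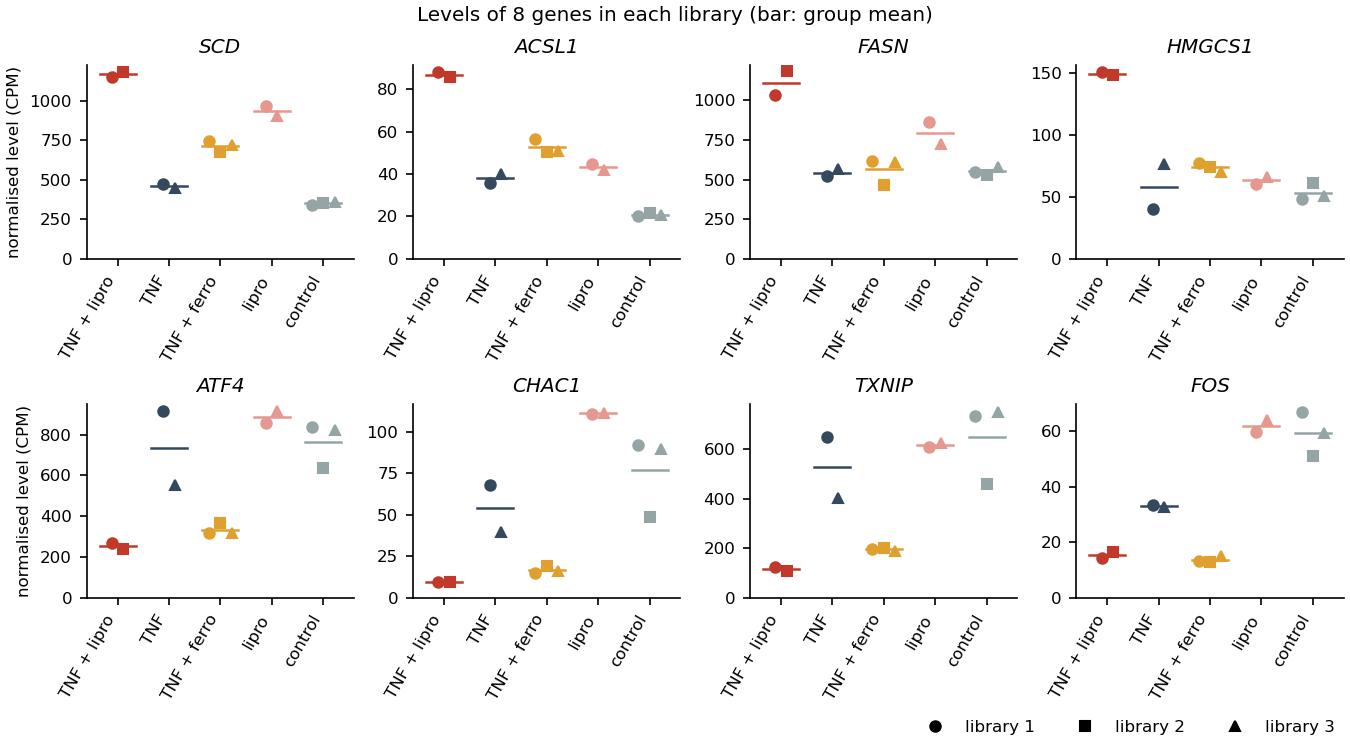
Normalised level in CPM (vertical axis, from 0) of 8 genes in each library of 5 groups; symbols give the library number, horizontal bars the group mean. SCD, ACSL1, FASN and HMGCS1 were higher in both libraries with TNF plus liproxstatin-1 than in both TNF libraries, and ATF4, CHAC1, TXNIP and FOS were lower.

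ATF4 and 5 other genes of its stress programme fell. Of 39 tested members of the ATF4 list 6 fell (ATF4, CHAC1, JDP2, PSPH, SESN2 and ADM2), 0 rose and 33 were not called, with a median log2 change of -0.72. CHAC1, a glutathione-degrading enzyme and ATF4 target (ENSG00000128965, chromosome 15, 40952962 to 40956512, plus strand), had 9.63 and 9.73 CPM with TNF plus liproxstatin-1 and 68.2 and 39.6 CPM with TNF, a log2 change of -2.48 ± 0.30 (SE, adjusted p = 0.00757, n = 2 each, edgeR). ATF4 itself had 270 and 237 CPM with TNF plus liproxstatin-1 and 917 and 552 CPM with TNF (log2 -1.53 ± 0.20, adjusted p = 0.0131). In both genes the groups did not overlap, the libraries with liproxstatin-1 agreed, and the TNF libraries differed, library 1 being the higher.

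JDP2, a bZIP repressor, had 10.0 and 9.58 CPM with TNF plus liproxstatin-1 and 34.2 and 21.1 CPM with TNF, and PSPH, the last enzyme of serine synthesis, had 54.4 and 48.5 CPM against 116 and 85.6 CPM. These changes held against each TNF library. SESN2, a stress-induced inhibitor of mTORC1, and ADM2, a secreted peptide, were called between the groups (log2 -1.39 and -1.53) but not against TNF library 3 (adjusted p = 0.0568 and 0.0759). The list's median was -0.99 against TNF library 1 and -0.51 against library 3, where over all genes it was 0.06 and -0.01. Between the groups, 27 of the 39 were lower and 1 higher at an unadjusted p below 0.05 (edgeR), where 11.9% and 11.2% of all genes were. The ATF4 list summed to 4199 and 4192 CPM with TNF plus liproxstatin-1 and to 8103 and 5851 CPM with TNF. With TNF plus ferrostatin-1 against TNF the median log2 change of this list was -0.44. Of 20 cytosolic aminoacyl-tRNA synthetases, many of which ATF4 controls, 1 fell: CARS1, which charges cysteine, at 102 and 103 CPM with TNF plus liproxstatin-1 against 229 and 162 CPM with TNF (log2 -0.93 ± 0.16, adjusted p = 0.0392).

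Other called genes lay outside these programmes. TXNIP, an inhibitor of thioredoxin and of glucose uptake, stood at 125 and 106 CPM with TNF plus liproxstatin-1 and at 649 and 404 CPM with TNF, a log2 change of -2.19 ± 0.24 (adjusted p = 0.00557, edgeR). FOS and JUN, the subunits of AP-1, were the calls among 28 immediate early genes: FOS had 14.2 and 16.6 CPM with TNF plus liproxstatin-1 against 33.3 and 32.5 CPM with TNF, and JUN 86.2 and 89.9 CPM against 145 and 136 CPM. Both held against either TNF library at nearly 1 size (FOS log2 -1.11 and -1.08, JUN -0.72 and -0.63). The immediate early list had a median of -0.55, and 16 of its 28 members had an unadjusted p below 0.05 with a negative change, 1 with a positive change, where 11.9% and 11.2% of all genes did. MUC13, a transmembrane mucin, SLC6A20, a proline transporter, and NCR3LG1, a ligand of the NK cell receptor NKp30, rose by log2 0.92, 1.33 and 1.36; these genes were picked out with their values in view. MUC13 had 169 and 152 CPM with TNF plus liproxstatin-1 against 80.8 and 89.3 CPM with TNF, and SLC6A20 had 28.8 and 31.5 CPM against 13.5 and 10.6 CPM.

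Transcripts of the mitochondrial genome moved in both directions. MT-CO2, a subunit of cytochrome c oxidase, had 4436 and 4881 CPM with TNF plus liproxstatin-1 and 2317 and 2789 CPM with TNF (log2 0.87 ± 0.10, adjusted p = 0.00643). MT-CYB, cytochrome b of complex III, had 2689 and 2667 CPM with TNF plus liproxstatin-1 and 4876 and 4360 CPM with TNF (log2 -0.79 ± 0.09, adjusted p = 0.00757). Of 13 mitochondrially encoded mRNAs these were the 2 called, and the median of the list was 0.01. The sources used here do not say whether the counting used strand, so values of genes that overlap or lie antisense to others, on the mitochondrial genome too, are uncertain.

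Proliferation genes lay higher mainly against TNF library 1. MKI67, the proliferation marker Ki-67, stood at 469 and 482 CPM with TNF plus liproxstatin-1 and at 163 and 184 CPM with TNF (log2 1.46 ± 0.14, adjusted p = 0.0016), with similar changes against either TNF library (1.55 and 1.37). It was the only call among 34 G2/M genes. Against TNF library 1, 18 of the 34 were higher and 0 lower, and against library 3 5 were higher (MKI67, CENPF, TOP2A, ASPM and KIF23) and 0 lower, with 12 of 34 higher and 0 lower there at an unadjusted p below 0.05, where 6.61% and 5.19% of all genes were. TOP2A, the topoisomerase of dividing cells, had 458 and 439 CPM with TNF plus liproxstatin-1 and 44.6 and 212 CPM with TNF. CENPF, a kinetochore protein, had 162 and 163 CPM against 14.9 and 60.7 CPM. In both genes the groups did not overlap and TNF library 1 was the lower of its pair. In bulk RNA, fewer cells of a type and less RNA per cell cannot be told apart.

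Which changes held against each TNF library was asked for all genes by fitting TNF libraries 1 and 3 as groups of their own, with the spread taken from the other groups. This leaves out the spread between the TNF libraries, the widest of any pair. The estimate of spread (edgeR's common dispersion) was 0.0455 there, against 0.0676 in the model of 6 groups. A call against each TNF library is therefore not a stricter test than a call between the groups. Against library 1, 6895 genes were called (31.1%), 3946 higher (17.8%) and 2949 lower (13.3%). Against library 3, 360 were called (1.62%), 319 higher (1.44%) and 41 lower (0.185%), a count of 221 and 149 without TNF plus liproxstatin-1 library 1 and 2. In the same direction against both, 344 were called (1.55%), 306 higher (1.38%) and 38 lower (0.171%), and 0 genes were called in opposite directions. These comparisons share the libraries with TNF plus liproxstatin-1. Of the 76 genes called between the groups, 65 were among the 344, 44 higher and 21 lower. Of the 53 rises, 46 were larger against library 1, and all 23 falls were. So were 8113 of the 11336 genes with a positive change between the groups and 7776 of the 10782 with a negative change.

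**Figure D2:**
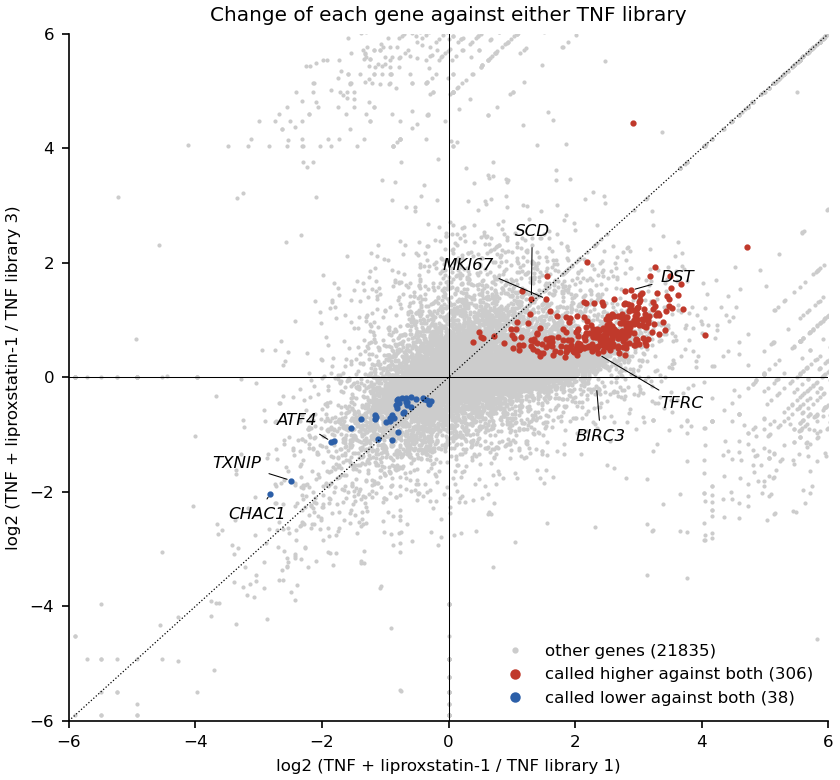
Each gene's log2 change with TNF plus liproxstatin-1 against TNF library 1 (horizontal axis) and against TNF library 3 (vertical axis); red and blue mark the 306 and 38 genes called higher and lower against both, the dotted line equal changes, and 982 genes lie beyond the axes at 6. SCD and MKI67 lie near the dotted line, whereas TFRC and BIRC3 lie near 2 against library 1 and near 0 against library 3.

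Several genes of ferroptosis and cell death were set by which TNF library was used. BIRC3, the NF-kB-induced inhibitor of apoptosis cIAP2, had 216 and 220 CPM with TNF plus liproxstatin-1 and 43.1 and 243 CPM with TNF. TFRC, the receptor that imports transferrin-bound iron, had 305 and 308 CPM with TNF plus liproxstatin-1 and 59.5 and 232 CPM with TNF, and ACSL4, which esterifies the polyunsaturated fatty acids that peroxidise in ferroptosis, had 74.6 and 76.2 CPM against 17.3 and 58.8 CPM. SLC7A11, the cystine importer, had 91.8 and 102 CPM with TNF plus liproxstatin-1 and 37.4 and 109 CPM with TNF. Each of these 4 was called higher against library 1 (log2 2.34, 2.36, 2.12 and 1.38) and not against library 3 (log2 -0.16, 0.40, 0.36 and -0.16), and none was called between the groups (adjusted p = 0.513, 0.153, 0.148 and 0.541, edgeR). TNF library 1 was the low one in each of them.

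GPX4, the peroxidase that clears lipid hydroperoxides, had 258 and 226 CPM with TNF plus liproxstatin-1 and 367 and 256 CPM with TNF (log2 -0.36, 95% interval -0.67 to -0.06, adjusted p = 0.154). AIFM2, the coenzyme Q reductase FSP1, had 60.2 and 54.8 CPM against 88.6 and 73.3 CPM (adjusted p = 0.107), and HMOX1, a heme oxygenase and NRF2 target, 10.5 and 9.25 CPM against 25.4 and 19.5 CPM (adjusted p = 0.074). The groups overlapped in GPX4 and not in AIFM2 or HMOX1, and none passed the threshold. Of 31 ferroptosis suppressors 1 was called (SCD, higher), and of 28 drivers and markers 1 (CHAC1, lower). Of 41 tested genes on the NRF2 list 1 was called (TXNIP, lower), and of 17 anti-apoptotic genes 1 rose, BIRC6. Control of TXNIP by NRF2 was not tested.

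Of the inflammatory and death gene lists that follow, edgeR called no member. Over all genes tested, 11.2% were higher and 11.9% lower at an unadjusted p below 0.05, the background for the counts at that threshold. At an adjusted p below 0.05, DESeq2 called 1141 of all 22179 genes higher and 1317 lower, and voom 115 and 8. TNFAIP3, the NF-kB feedback inhibitor, had 106 and 116 CPM with TNF plus liproxstatin-1 and 95.3 and 115 CPM with TNF (log2 0.08, 95% interval -0.20 to 0.36, adjusted p = 0.777). ICAM1, an adhesion molecule, had 165 and 181 CPM with TNF plus liproxstatin-1 and 277 and 237 CPM with TNF (log2 -0.57, 95% interval -0.82 to -0.31, adjusted p = 0.0616), and the chemokine CXCL8 had 75.3 and 70.2 CPM against 101 and 97.9 CPM (log2 -0.45, adjusted p = 0.112). TNFAIP3 overlapped between the groups, and ICAM1 and CXCL8 did not. Of 48 NF-kB targets edgeR called 0 in either direction, with 3 higher and 17 lower at an unadjusted p below 0.05; DESeq2 called 10 lower and limma voom 0. Of 52 interferon-stimulated genes edgeR called 0, with 7 higher and 10 lower at an unadjusted p below 0.05 (DESeq2 4 higher and 5 lower, voom 0), and of 22 genes of MHC class I presentation 0, with 0 higher and 8 lower (DESeq2 4 lower, voom 0). Of 32 pro-apoptotic genes and caspases edgeR called 0, with 3 higher and 13 lower at an unadjusted p below 0.05 (DESeq2 2 higher and 7 lower, voom 0). CASP8, the initiator caspase of TNF death signalling, had 60.0 and 59.9 CPM with TNF plus liproxstatin-1 against 79.9 and 68.7 CPM with TNF (adjusted p = 0.126).

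**Figure D3:**
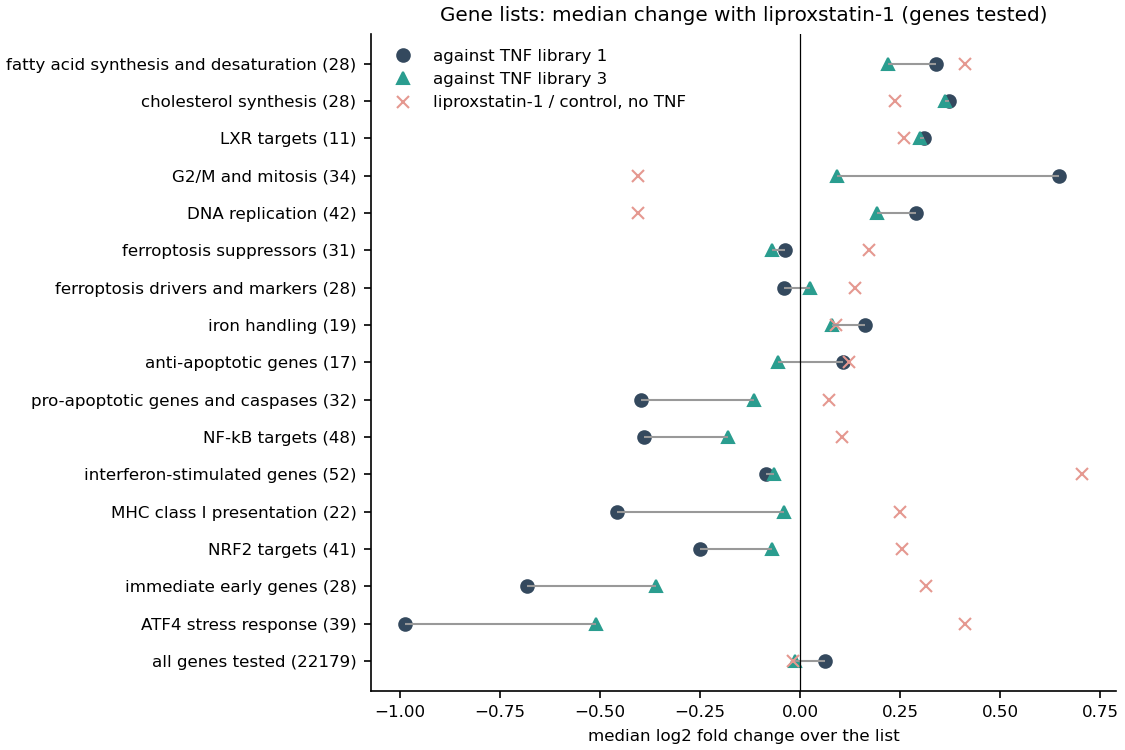
Median log2 change over gene lists (horizontal axis; number of tested genes in brackets) with TNF plus liproxstatin-1 against TNF library 1 (circles) and library 3 (triangles), joined by a line, and with liproxstatin-1 against control (crosses). The ATF4 list lay at -0.99 and -0.51 with TNF and at 0.41 without it, and the G2/M list at 0.65 and 0.09 with TNF and at -0.41 without it.

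Transcript length moved with the rises. Of the 53 genes that rose, 38 were in the longest 20% of genes by longest annotated transcript (5124 to 205012 bases), as were 246 of the 306 that held higher against both TNF libraries. The median length was 7942.5 bases among the 53 rises (52 with a length), 2926 among the 23 falls and 2756 over all genes. Among the largest rises were DST, a cytoskeletal linker (longest transcript 22431 bases), at 132 and 135 CPM with TNF plus liproxstatin-1 against 18.1 and 46.5 CPM with TNF, UTRN, a dystrophin relative (12339 bases), at 79.9 and 89.1 CPM against 12.2 and 29.8 CPM, and BIRC6, a giant ubiquitin ligase and inhibitor of apoptosis (15703 bases), at 185 and 186 CPM against 22.5 and 66.7 CPM. Of the called lipid and proliferation genes, these had longest transcripts of 3506 bases (HMGCS1), 4103 (ACSL1), 5362 (SCD), 8565 (FASN), 9961 (ACACA) and 12678 (MKI67). In the longest 20% the median log2 change was 0.42 against TNF library 1 and 0.05 against library 3, and TNF library 1 against library 3 gave -0.33. With an offset for length and GC content edgeR called 1404 genes, against 76 without it. Of the 75 genes of the 76 that could be fitted, 71 stayed called in the same direction, 48 rises and 23 falls. Whether length accounts for these changes was not tested.

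**Figure D4:**
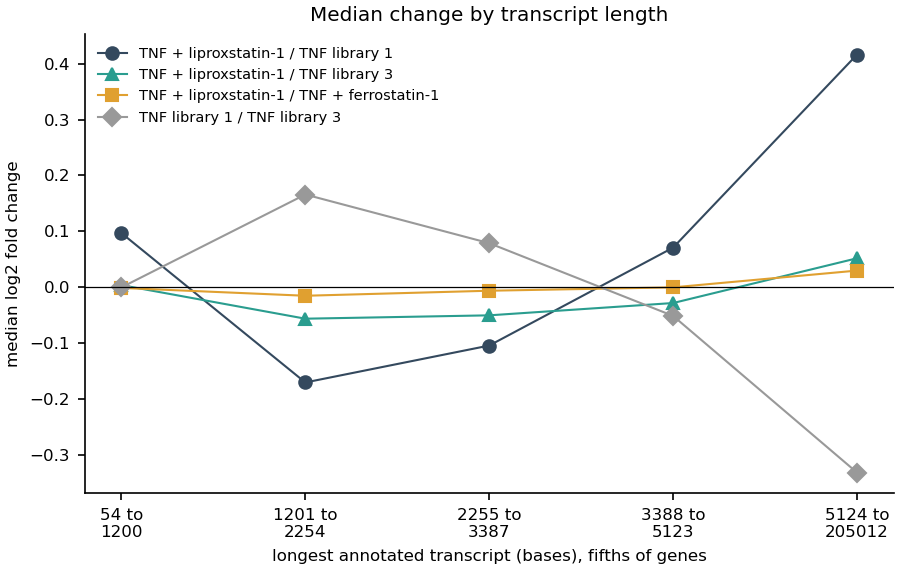
Median log2 change (vertical axis) in bins of 20% of genes by longest annotated transcript (horizontal axis, bases) for TNF plus liproxstatin-1 against each TNF library and against TNF plus ferrostatin-1, and for TNF library 1 against library 3. The longest bin stands at 0.42 against TNF library 1, at 0.05 against library 3 and at 0.03 against TNF plus ferrostatin-1.

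Liproxstatin-1 without TNF was compared with control, in libraries that the main comparison did not use, to see which changes also occurred without TNF. SCD had 967 and 900 CPM with liproxstatin-1 and 341, 350 and 359 CPM in control (log2 1.42 ± 0.07, adjusted p = 4.3e-06), close in size to its change under TNF. ACSL1 rose by log2 1.06 ± 0.10 (adjusted p = 0.00156), and MUC13, SLC6A20 and NCR3LG1 rose as well. Of the 53 rises 6 were called without TNF; 13 of all 22179 genes were called there (0.0586%), 12 higher (0.0541%) and 1 lower (0.00451%). Of the 53 rises 39 had a positive change without TNF (73.6%), against 45.8% of all genes with a positive change under TNF. CHAC1, by contrast, had 111 and 112 CPM with liproxstatin-1 and 91.8, 48.9 and 89.4 CPM in control, and ATF4 858 and 916 CPM against 840, 636 and 823 CPM. Of the 23 falls 8 had a negative change without TNF (34.8%, against 50.7% of all genes with a negative change under TNF), and 0 were called lower there. The list median of ATF4 genes was 0.41 without TNF.

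The difference between these changes was tested as an interaction, and edgeR called 0 of 22179 genes, with 4329 at an unadjusted p below 0.05; DESeq2 called 1303 and limma voom 207. Without TNF library 1 edgeR called 239, without TNF library 3 6147, and without control library 2 18. MKI67 and CHAC1 came nearest among the named genes, with interactions of log2 1.47 ± 0.18 and -3.01 ± 0.38 (adjusted p = 0.0519 for each), and ATF4 and TXNIP had -1.74 ± 0.27 and -2.12 ± 0.31 (adjusted p = 0.0754 for each). SCD had an interaction of -0.08 ± 0.11 (adjusted p = 0.723).

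**Figure D5:**
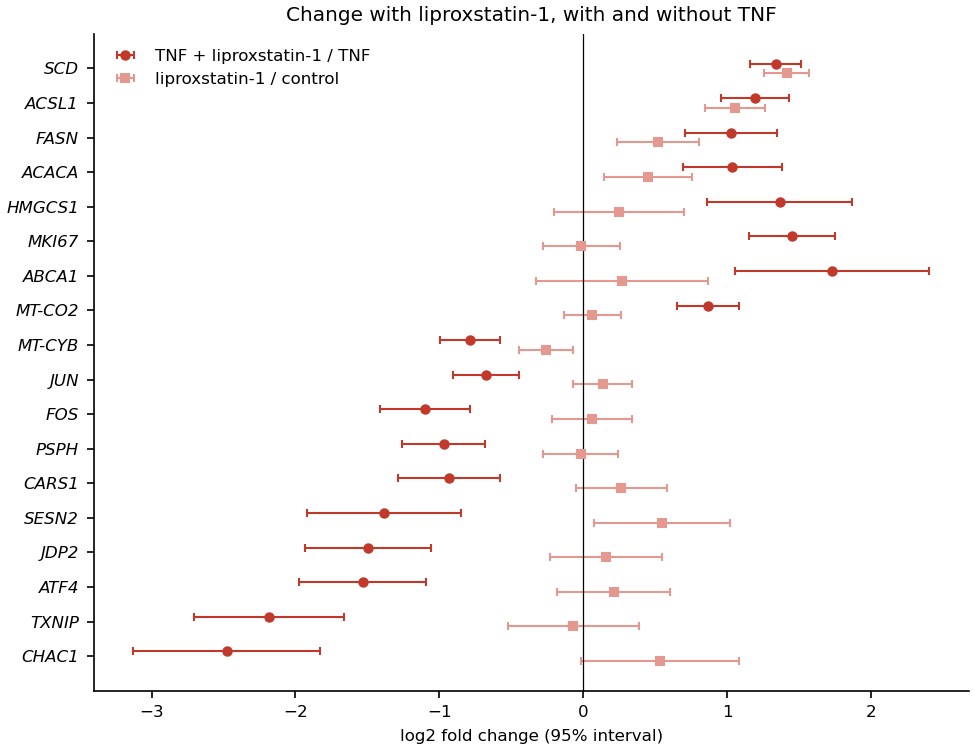
Log2 change with 95% interval (horizontal axis) of called genes for TNF plus liproxstatin-1 against TNF (dark circles) and for liproxstatin-1 against control (light squares). SCD and ACSL1 lie above 0 in both, while MKI67 and the genes from JUN down to CHAC1 lie away from 0 under TNF and near or above 0 without it.

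Against TNF plus ferrostatin-1, a radical-trapping aromatic amine of another scaffold given at the same 20 uM and 72 h, TNF plus liproxstatin-1 differed in 170 genes (0.766%), 151 higher (0.681%) and 19 lower (0.0857%), a count of 26 to 65 with any 1 of these 5 libraries left out. SCD was higher with TNF plus liproxstatin-1, at 1149 and 1181 CPM against 747, 675 and 719 CPM with TNF plus ferrostatin-1 (log2 0.71 ± 0.07, adjusted p = 0.000874), as were ACSL1 (0.72 ± 0.10) and FASN (0.97 ± 0.13). Of 28 cholesterol synthesis genes 8 were higher and 0 lower, among them LSS (0.97 ± 0.11) and DHCR7 (0.81 ± 0.10), the lanosterol synthase and a late sterol reductase. CYP1A1, a xenobiotic-metabolising target of the aryl hydrocarbon receptor, had 105 and 97.3 CPM with TNF plus liproxstatin-1 and 5.04, 5.67 and 6.03 CPM with TNF plus ferrostatin-1 (log2 4.18 ± 0.21, adjusted p = 2.4e-06), whereas in TNF it had 106 and 76.4 CPM. CYP1B1 was higher by log2 1.49 ± 0.15 than with TNF plus ferrostatin-1. ATF4 (log2 -0.40, 95% interval -0.79 to 0.00), CHAC1 (-0.79, -1.37 to -0.21), PSPH (-0.11, -0.37 to 0.15) and FOS (0.17, -0.11 to 0.45) were not called between the compounds, the only pair matched under TNF. Against the same TNF libraries, TNF plus ferrostatin-1 changed ATF4 by log2 -1.14 ± 0.18 and CHAC1 by -1.69 ± 0.25. PSPH changed by -0.86 ± 0.12 there and FOS by -1.27 ± 0.13. TXNIP (-1.43 ± 0.21), MKI67 (0.87 ± 0.13) and ABCA1 (2.37 ± 0.3) also moved there in the same direction as with liproxstatin-1. SCD (0.63 ± 0.07) and ACSL1 (0.475 ± 0.098) rose there too, by less than with liproxstatin-1. FASN (0.06 ± 0.13) and JUN (-0.12 ± 0.09) changed little with ferrostatin-1. Of the 23 genes that fell against TNF, 4 were called lower than with TNF plus ferrostatin-1 as well: JUN (-0.55 ± 0.10, adjusted p = 0.0254), TSC22D1, SGPP2 and AL772307; these comparisons share the libraries with TNF plus liproxstatin-1.

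A few genes were unequal between the libraries with TNF plus liproxstatin-1. KRT81, a hair keratin, had 13.5 and 1.85 CPM there and 43.7 and 50.4 CPM with TNF. KRT7, a simple epithelial keratin, had 31.0 and 13.5 CPM against 88.4 and 106 CPM, and neither was called (adjusted p = 0.253 and 0.136). Both keratins were unequal in other groups too. Without TNF, KRT81 had 57.1 and 1.45 CPM with ferrostatin-1 and 1.05 and 13.997 CPM with liproxstatin-1. KRT7 had 100.2 and 9.51 CPM, and 13.1 and 28.8 CPM, in those groups. KRT81 had 1.47, 1.73 and 1.79 CPM with TNF plus ferrostatin-1 and 47.6 to 48.4 CPM in control. The cause was not tested. Most colon epithelial markers were present, with EPCAM at 469 and 454 CPM with TNF plus liproxstatin-1 and 524 and 520 CPM with TNF. CDX1 lay near 0, at 0.359 and 0.272 CPM against 0.397 and 0.304 CPM. Of the 12 markers edgeR called 0, and without overlap of the groups 3 lay higher and 7 lower, where 25.0% and 25.4% of all genes did. Fibroblast and endothelial markers summed to 10.95 and 51.2 CPM with TNF plus liproxstatin-1 and to 37.2 and 59.4 CPM with TNF. Of these, edgeR called 0 of 14 in either direction (2 lower at an unadjusted p below 0.05, 0 by DESeq2 and voom). Without overlap of the groups 4 lay lower (COL1A1, COL1A2, COL3A1 and ACTA2) and 0 higher, where 25.4% and 25.0% of all genes did. COL1A1 had 4.33 and 8.64 CPM with TNF plus liproxstatin-1 against 14.2 and 23.3 CPM with TNF. VWF had 0 and 19.0 CPM against 2.88 and 2.96 CPM. Of 16 leukocyte markers 10 were tested and edgeR called 0, with 1 lower at an unadjusted p below 0.05 and 0 by DESeq2 and voom. Their sum was 903 and 818 CPM against 1023 and 899 CPM, most of it LYZ, and NKG7 had 0 counts in both libraries with TNF plus liproxstatin-1. The part of such RNA in the results was not tested.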

How the data were processed

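Poly(A) RNA libraries were dUTP-stranded and read as paired ends, per the labels' protocols. The authors deposited whole-number counts per gene for 14 libraries, used here, and 14 columns of FPKM, which per the file headers stand beside the counts and were not used. StringTie 1.3.4d, HISAT2 2.0.4, cutadapt 1.9, DESeq2 and edgeR are named, per the submitters' processing notes, with no role or order; the sources used here name no genome build or counting program. Columns of TNF are numbered 1 and 3 where titles say 1 and 2, so they were matched by group only.

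Counts were filtered with filterByExpr (22179 genes) and scaled by TMM in edgeR 4.0.16 (R 4.3.3). The quasi-likelihood test ran on a model of 6 groups (8 residual degrees of freedom) and, for each TNF library, of 7 groups (7 degrees of freedom). In the latter the lone library is assumed to vary like the other groups, though the TNF libraries lay further apart than any other pair. Called means an adjusted p (Benjamini-Hochberg over all genes tested) below 0.05; standard errors are the log2 change over the square root of F. Transcript lengths came from GENCODE v29. The models were tested on simulated counts. Alternatives were relative log expression scaling, other filters, DESeq2 1.42.0, limma voom (3.58.1) with quality weights, the compared groups alone, a replicate block, libraries left out and, chosen after seeing the data, a length and GC offset. The members and 35 gene lists were chosen with earlier results of these data known. Named genes were up to 12 each of the largest rises and falls, of which 33 rises and 7 falls were eligible (at least 2-fold, mean of at least 50 counts, no overlap, held against both TNF libraries), up to 4 called per list, a fixed set of death and lipid genes, and up to 6 that depended on the TNF library; part are printed, with others marked as chosen after their values were seen. 1 called gene is not reported here. List members called or named in a count of 5 or fewer are also named. Same-numbered libraries of the compared groups did not deviate together (r = 0.0191 for number 1, the only number shared).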

Additional observations from a re-analysis of the deposited data

How the results depend on the processing

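The count of 76 genes stayed within 1.5 times under relative log expression scaling (73), without a filter (62) and at 2-fold (53). It moved to 117 with a CPM of at least 1 in 3 libraries, 2458 with DESeq2, 123 with voom, 1404 with the length and GC offset, and 0 with edgeR on the compared groups alone (703 higher and 542 lower at an unadjusted p below 0.05). Voom called 115 higher and 8 lower, DESeq2 1141 and 1317, and the offset 651 and 753. The replicate block by column number, a number the compared groups share only for library 1, gave 19. Leaving out 1 library gave 4 to 6797 calls: 356 without TNF library 1, 6797 without TNF library 3, and 6 or 4 without TNF plus liproxstatin-1 library 1 or 2. Of the 76, 76 kept their direction under each setting but for genes not tested there, with calls kept for 73 under relative log expression scaling, 72 with DESeq2, 25 with voom, 18 with the block, 65 without TNF library 1 and 76 without TNF library 3.

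Against TNF library 1 the count of 6895 moved over 1.5 times only at 2-fold (2763). Against library 3 the count of 360 moved to 873 with DESeq2, 618 with voom, 202 with the replicate block, 101 at 2-fold, and 149 to 221 with a library of TNF plus liproxstatin-1 left out. The 344 called against both moved to 789 (DESeq2), 593 (voom), 190 (replicate block), 88 (2-fold) and 141 to 209. The 170 against TNF plus ferrostatin-1 moved to 105 without a filter, 464 with DESeq2, 813 with voom, 575 on the compared groups alone, 67 with the replicate block, 71 at 2-fold and 26 to 65 with a library left out. The interaction moved to 2 without a filter, 3 with the stricter filter, 1303 with DESeq2, 207 with voom, 299 with the offset and 0 to 6147 with a library left out, 6147 without TNF library 3 and 239 without library 1. Among named genes not called, signs turned with the length and GC offset for SLC7A11 (-0.39) and CFLAR (-0.61), with the replicate block for PTGS2 (0.043) and with voom for MATR3 (2.40), a symbol that 2 gene IDs share. With 1 library left out the log2 change spanned 0 for SLC7A11 (-0.17 to 1.38), FTH1 (-0.11 to 0.20), BIRC3 (-0.16 to 2.34), TNFAIP3 (-0.056 to 0.22), CYP1A1 (-0.063 to 0.40), CYP1B1 (-0.052 to 0.63) and MATR3 (-1.68 to 6.95), the ends being those without TNF library 1 or 3. The cause was not tested.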
